A study of Homo sapiens with 12 samples.

Results

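The genes described here are 8 components of the p53 pathway, chosen by symbol: MDM2, MDM4, RRM2B, SESN1, GDF15, ZMAT3, FAS and TNFRSF10B. All 8 are among the 23497 genes of the count table, and all 8 are among the 17114 with enough counts to be tested. They were followed through 12 RNA-seq libraries of WM1366, an established human melanoma cell line with a mutant NRAS gene, to ask whether they move together. The sensitive group is the parent line grown with DMSO, the drug solvent. The EB-resistant daughter line was kept in encorafenib with binimetinib. The VC-resistant line had vemurafenib with cobimetinib, and dabrafenib with trametinib went to the DT-resistant line, each pair being a BRAF inhibitor and a MEK inhibitor. RNA was taken 72 h after seeding, with drug present in the resistant cultures, and each group has 3 libraries from separate experiments, numbered 2, 5 and 6. Each drug pair is represented by 1 resistant line, so resistance, the drug itself and the history of the culture cannot be told apart, and the spread between libraries is the spread between experiments rather than between independently derived lines. Library totals lay between 40491309 and 54495132 counts.

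The transcription factor p53 is held at a low level by MDM2, a ubiquitin ligase that marks it for destruction, and by MDM4, a relative of MDM2 that binds and masks its activation domain. After DNA damage and other stresses the hold is released, and p53 binds response elements in the DNA and raises genes for cell cycle arrest, DNA repair, redox control and cell death. MDM2 is itself a p53 target, which closes a negative feedback loop, and in melanoma p53 is often restrained by high MDM2 or MDM4. RRM2B encodes a ribonucleotide reductase subunit that supplies nucleotides for repair, SESN1 a sestrin that restrains the growth kinase mTORC1, GDF15 a secreted stress hormone, ZMAT3 an RNA-binding protein, and FAS and TNFRSF10B (DR5, the receptor for TRAIL) surface receptors that start apoptosis.

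The DNA letters p53 reads are shown first, because they are what the 8 genes might share besides their names. The p53 consensus element consists of 2 adjoining units of 10 bases, each made of 3 purines, a C, 2 bases that are A or T, a G and 3 pyrimidines, and it equals its own reverse complement, so 1 scan covers both strands. Windows from 250 bases before to 50 bases after each RefSeq start (GRCh38.p14) were scanned for 20-base stretches with no spacer and at most 3 mismatches, a limit chosen with the known MDM2 elements in mind. Windows were matched for 6 of the 8 genes, all except RRM2B and TNFRSF10B. The matches are given 5′ to 3′ on the gene's strand, with capitals for bases that fit the consensus.
MDM2, first element, chr12:68808923-68808942, plus strand: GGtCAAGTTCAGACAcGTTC
MDM2, second element, chr12:68808961-68808980, plus strand: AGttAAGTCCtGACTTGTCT
SESN1, chr6:109009018-109009037, minus strand: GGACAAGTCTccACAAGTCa
GDF15, chr19:18386186-18386205, plus strand: AGcCATGCCCGGGCAAGaaC
FAS, chr10:88991309-88991328, plus strand: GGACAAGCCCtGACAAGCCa

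The first MDM2 element and the FAS element had 2 mismatches, and the other 3 stretches had 3. The limit of 3 was set so that the MDM2 elements pass, so MDM2 is left out of the counts. Of the other 5 genes with a window, 3 had a match with at most 3 mismatches and 1 a match with at most 2, while 6.39% and 0.820% of 27303 genes had one. These shares are not alike in kind, because a gene with several annotated starts has several windows. Counted by window, 3 of the 10 windows of these 5 genes held a match with at most 3 mismatches, against 5.20% of all 35114 windows of the same length. The windows of MDM4 and ZMAT3 held no such stretch. Of the wider list of p53 targets described further below, 8 of 33 genes with a window had a match with at most 3 mismatches (24.2%). In the GENCODE 29 annotation the MDM2 elements lie inside 7 of the gene's 34 transcripts and in no exon of them, that is, in an intron upstream of the second start. The SESN1 stretch lies inside 2 of 7 transcripts and in no exon. The FAS stretch lies inside 13 of 20 transcripts, and 2 annotated exons cover part or all of it. The GDF15 stretch begins 28 bases after the start, within 3 annotated exons that hold both untranslated and coding sequence. A match is a likeness of letters and was not tested for binding.

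The 250 bases before the second MDM2 start (position 68809017, chr12:68808767-68809016, plus strand) show both elements in capitals, close together and shortly before the start. The windows at the 2 annotated starts of the first promoter had no stretch with fewer than 5 mismatches.
MDM2, second promoter: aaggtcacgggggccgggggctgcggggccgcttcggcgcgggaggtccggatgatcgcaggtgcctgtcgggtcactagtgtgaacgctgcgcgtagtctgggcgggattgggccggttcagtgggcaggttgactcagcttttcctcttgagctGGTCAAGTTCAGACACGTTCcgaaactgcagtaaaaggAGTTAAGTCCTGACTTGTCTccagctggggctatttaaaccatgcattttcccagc

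Levels are CPM, the counts of a gene per 1e6 counts of its library after TMM scaling, and log2 fold changes come from 1 model of all 12 libraries. A gene is said to rise or fall only where its Benjamini-Hochberg adjusted p in edgeR's quasi-likelihood test, taken over all 17114 genes, was below 0.05. Calls described as made under every alternative held under other size factors, no filter, the replicate block, only the groups compared, DESeq2 and the removal of each library or of all replicate 2 libraries; a 2-fold minimum is treated separately. Of 11 melanocyte lineage markers 7 have values here, led by the transcription factors MITF (47.1 CPM on average in the parent line) and PAX3 (21.1 CPM). The pigment genes PMEL, DCT and TYRP1 stayed below 1 CPM in each group's mean, and TYR, MLANA, SOX10 and S100B have no row in the table analysed here. Their summed level was 64.5 to 73.6 CPM in the parent libraries and 83.4 to 103 CPM in the 9 resistant ones. All 7 fibroblast markers have values, and they summed to 109 to 148 CPM in the parent, to 524 to 586 in the EB line, to 280 to 313 in the VC line and to 360 to 467 in the DT line, most of it THY1, with COL1A2 and DCN below 0.2 CPM in each group's mean. The summed immune markers (3 of 5 with values) stayed at or below 1.19 CPM, the endothelial markers (4 of 4) at or below 7.38 CPM and the epithelial markers (1 of 5) at or below 0.208 CPM. In bulk RNA a change in the share of cells and a change in RNA per cell cannot be told apart, and the part of the fibroblast markers in the results below was not tested.

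Before the comparisons, 2 libraries have to be set apart, because several of the 8 genes stood high in them together. In sensitive replicate 2 the level was the highest of its group for 7 of the 8 genes, SESN1 being the exception, and in EB-resistant replicate 2 it was the highest for all 8. Replicate 2 was the highest library for 40.1% of all genes tested in sensitive and for 33.5% in EB-resistant. In VC-resistant replicate 2 only GDF15 and TNFRSF10B were highest, and in DT-resistant replicate 2 only MDM4, GDF15, ZMAT3 and TNFRSF10B. The difference of log2 CPM between replicate 2 and the mean of replicates 5 and 6 was 0.84 for MDM2 in sensitive and 1.61 in EB-resistant, which placed it at rank 27 of 17114 genes. For GDF15 it was 2.49 in sensitive, at rank 8, and 0.32 in EB-resistant. FAS differed by 1.13 and SESN1 by 0.64 in EB-resistant.

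Part of the wider list of p53 targets was also high in these libraries. Replicate 2 was the highest library for 22 of its 36 tested genes in sensitive and 21 in EB-resistant, but also for 20 in VC-resistant and 19 in DT-resistant, so this order did not set the sensitive and EB-resistant libraries apart. The corresponding shares of all genes were 40.1%, 33.5%, 38.2% and 39.3%. Of the 36 tested genes of the wider list, 8 were at least 1.5-fold higher in replicate 2 than in the mean of the other libraries in sensitive and 9 in EB-resistant, against 8.33% and 5.0% of all genes tested. In VC-resistant 0 of 36 and in DT-resistant 1 of 36 did so, against 6.80% and 7.34%. At least 1.5-fold lower in replicate 2 were 1, 0, 2 and 3 of the 36 in sensitive, EB-, VC- and DT-resistant. Of all genes 4.61%, 4.55%, 8.40% and 8.96% were. TP53INP1, a p53-induced autophagy gene, was 2.61-fold higher in sensitive replicate 2, and the p53-induced apoptosis gene BBC3 (PUMA) 2.04-fold higher. AEN, a p53-induced nuclease, was 2.69-fold higher in EB-resistant replicate 2, and GADD45A, a growth arrest gene, 2.25-fold higher. The other EB-resistant libraries also differed, with log2 CPM of replicate 5 minus replicate 6 at -0.90 for AEN and -0.57 for GADD45A. Genes of the integrated stress response, which also raise GDF15, were at least 1.5-fold higher in replicate 2 for 5 of 9 in sensitive and 0 of 9 in EB-resistant. The labels name no difference between replicate 2 and the others, and what sets replicate 2 apart was not tested. Results that rest on these libraries are given below with and without replicate 2 of all 4 groups, an alternative added after the data were seen. It leaves 2 libraries per group. Because replicate 2 was chosen on the values of the genes described, the adjusted p values of that setting are descriptions.

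**Figure D1:**
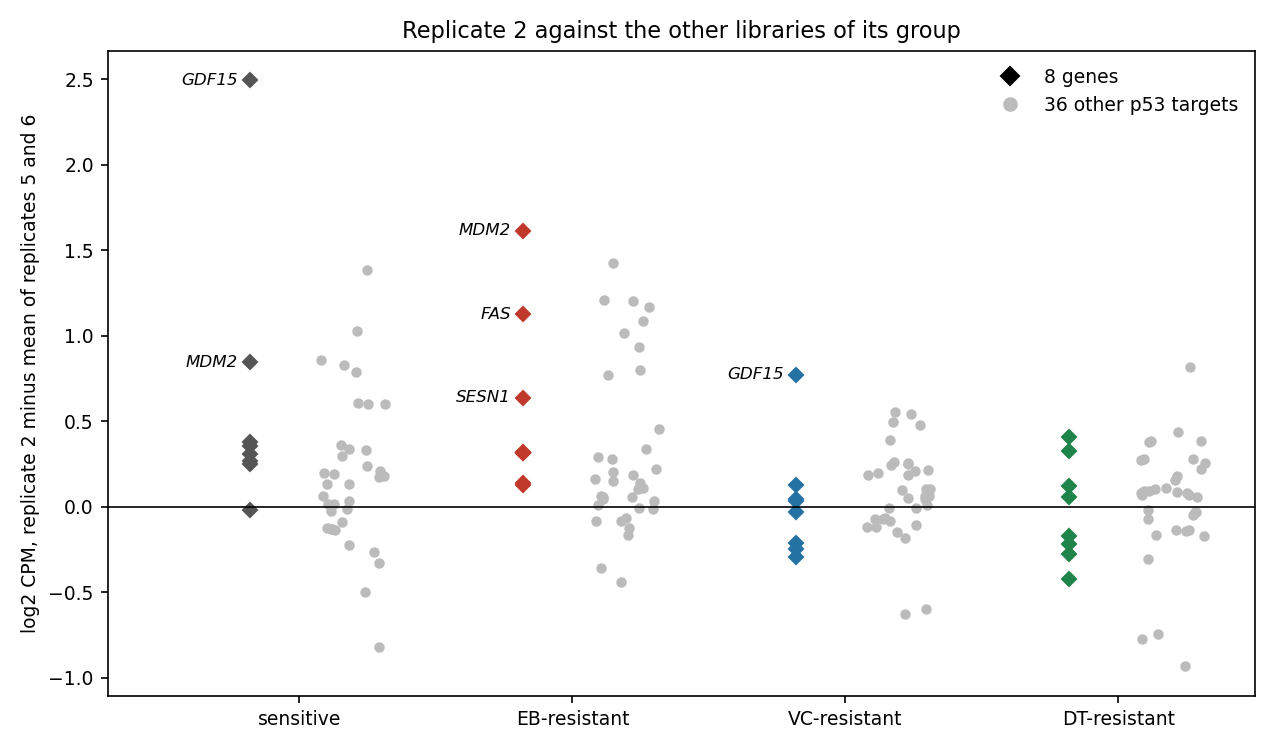
Difference of log2 CPM between replicate 2 and the mean of replicates 5 and 6 in each group (vertical axis), for the 8 genes (diamonds, named where at least 1.5-fold) and 36 other tested p53 targets (grey circles, spread sideways for legibility). GDF15 at 2.49 in sensitive and MDM2 at 1.61 in EB-resistant are the highest of the 8 genes, and all 8 lie above 0 in EB-resistant.

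Against sensitive, the 8 genes did not move as a set in any of the 3 lines. In EB-resistant 1 rose and 2 fell, so 37.5% were called while 56.1% of all genes tested were. In VC-resistant 2 rose and 2 fell (50% against 55.0%), and in DT-resistant 3 rose and 1 fell (50% against 59.1%). With all libraries, the share of the 8 genes called was thus near or below that of all genes in each line. The median log2 fold change of the 8 genes was -0.20, -0.08 and -0.31, with rises and falls on both sides, against -0.0046, -5.4e-06 and -0.0054 for all genes. In that fit FAS alone was called in the same direction in the 3 lines, against 24.6% of all genes. It was also the only 1 of the 8 whose change was called and at least 2-fold, which 21.2%, 18.9% and 22.0% of all genes reached. Without replicate 2 of any group, 2 rose and 4 fell in EB-resistant, 4 rose and 2 fell in VC-resistant, and 4 rose and 3 fell in DT-resistant, against 58.8%, 56.6% and 58.6% of all genes called. In this setting a larger share of the 8 genes than of all genes was called in each line. MDM2 and FAS then fell in each of the 3 lines, and GDF15 and ZMAT3 rose in each. How many of all genes were called alike in the 3 lines was not counted there. The setting was chosen after several of the 8 genes were seen to be high in replicate 2.

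Within the groups the 8 genes varied together over all 12 libraries, while most pairs did not once replicate 2 was left out. Each gene's log2 CPM was taken as its deviation from the group mean, and 27 of the 28 pairs among the 8 genes then had a positive Pearson r over the 12 libraries, with a median of 0.51. Over the 8 libraries left without replicate 2, 11 of the 28 pairs were positive, with a median of -0.30. Over the undivided log2 CPM of the 12 libraries, which includes the differences between groups, 12 of 28 were positive and the median was -0.14. Among all pairs of tested genes 50.0% were positive in each of these measures, with a median of 0. The pairs share genes and libraries, so these values are descriptions. Replicate 2 was singled out for high levels of these genes, so leaving it out removes shared variation by choice. With 2 libraries left per group, their deviations from the group mean are equal and opposite. The value without replicate 2 is therefore not a like measure, and it cannot decide whether the genes vary together apart from replicate 2.

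**Figure D2:**
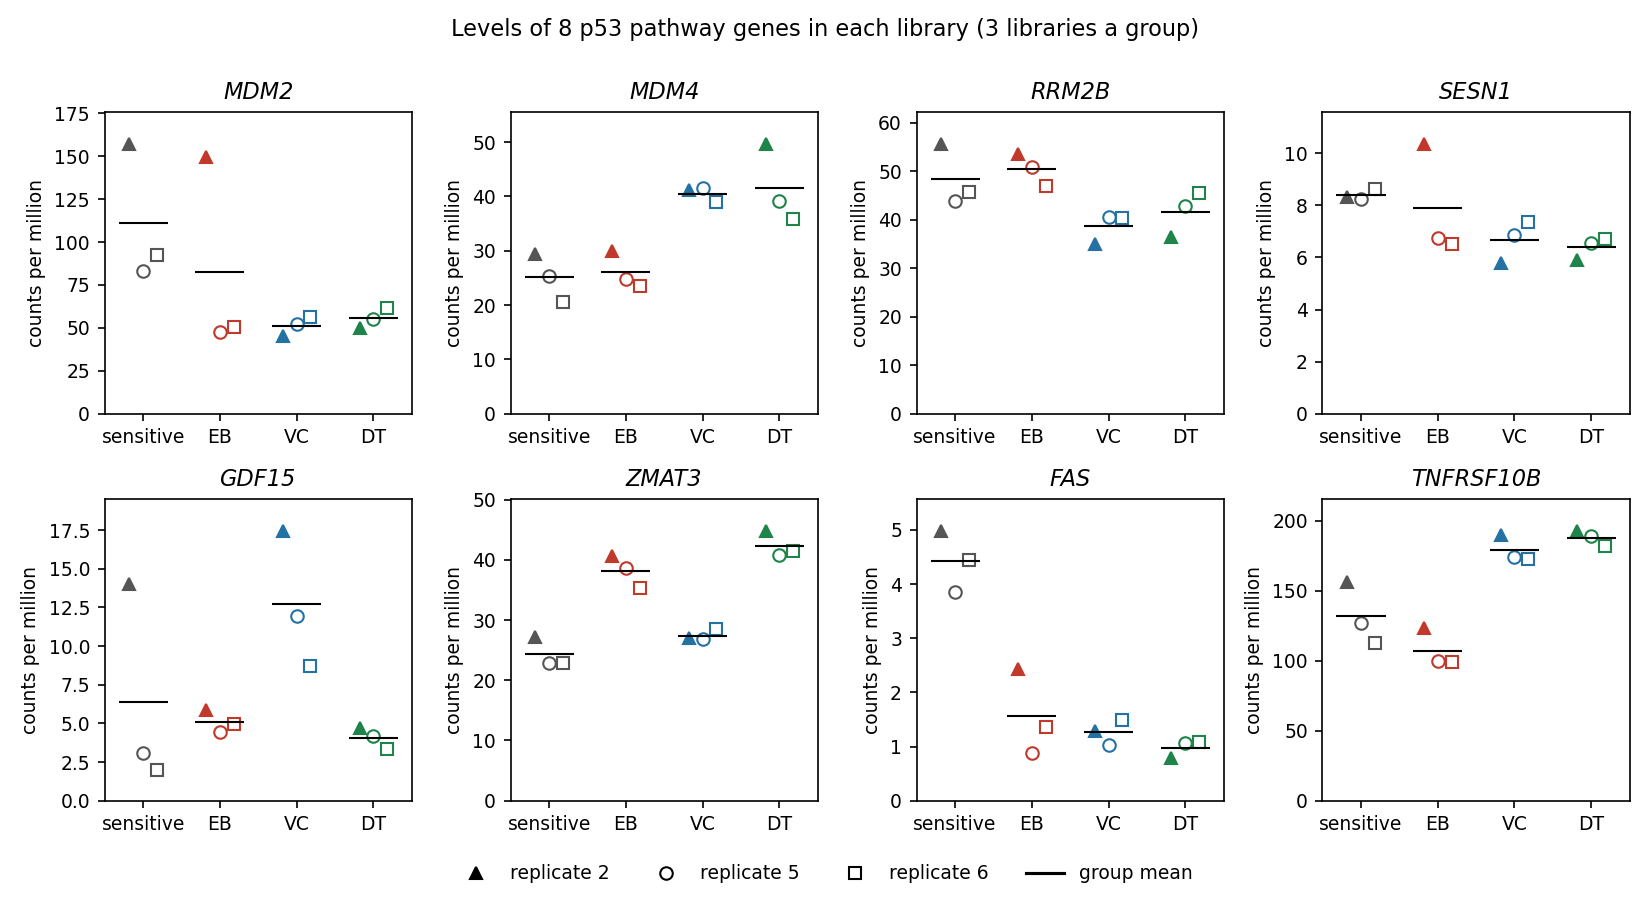
CPM of each of the 8 genes in every library (points, 3 per group; triangles mark replicate 2) with the group mean (line), each panel on its own linear axis from 0. MDM2 in sensitive and EB-resistant replicate 2 stands near 150 while the other EB-resistant libraries stand near 50, and FAS is lower in all 9 resistant libraries than in the 3 sensitive ones.

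MDM2, the ligase that degrades p53 (chromosome 12, 68808177 to 68845544, plus strand, hg38), had 2 libraries far above the rest. Its levels were 157, 82.9 and 92.5 CPM in sensitive replicates 2, 5 and 6, and 149, 47.4 and 50.3 CPM in EB-resistant ones. In VC-resistant libraries they were 45.5, 52.2 and 56.1 CPM, and in DT-resistant ones 50.0, 54.9 and 61.5 CPM. All 6 VC- and DT-resistant libraries and EB-resistant replicates 5 and 6 lay below every sensitive library, while EB-resistant replicate 2 lay among them. The log2 fold change was -1.11 ± 0.44 (SE) in VC-resistant (adjusted p = 0.0567), -1.0 ± 0.44 in DT-resistant (adjusted p = 0.0762) and -0.43 ± 0.43 in EB-resistant (adjusted p = 0.431), so MDM2 was called in none of them. The model shares 1 estimate of the spread among the groups, and that of MDM2 includes EB-resistant replicate 2. Without that single library the values were -1.17 in EB-resistant (adjusted p = 0.00200), -1.10 in VC-resistant (0.00124) and -0.99 in DT-resistant (0.00204), all called. That library is singled out here for its own MDM2 level, while sensitive replicate 2, also high, stayed in the fit. These adjusted p values are therefore descriptions too. MDM2 also fell in all 3 lines without replicate 2 of all groups, by 0.84, 0.69 and 0.58 on the log2 scale in EB-, VC- and DT-resistant, with adjusted p = 1.62e-08, 3.69e-07 and 3.12e-06. That fit, with 2 libraries per group, was added after MDM2 was seen to be high in sensitive and EB-resistant replicate 2. Its adjusted p values are therefore descriptions. In fits of only the 2 groups compared, the difference was called in VC-resistant (adjusted p = 0.00778) and in DT-resistant (0.00681), and in VC-resistant it was also called by DESeq2 (0.0350) and without EB-resistant replicate 5 (0.0421).

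MDM4, the partner of MDM2 (chromosome 1, 204516379 to 204558120, plus strand), rose in the VC- and DT-resistant lines and was not called in the EB-resistant line. It stood at 29.3, 25.4 and 20.6 CPM in sensitive replicates 2, 5 and 6, at 30.0, 24.7 and 23.5 CPM in EB-resistant, at 41.1, 41.5 and 38.9 CPM in VC-resistant and at 49.7, 39.1 and 35.9 CPM in DT-resistant. The VC- and DT-resistant libraries all exceeded every sensitive and EB-resistant library, and the latter 2 groups overlapped. MDM4 rose by 0.69 ± 0.14 (log2, SE) in VC-resistant (adjusted p = 0.000689) and by 0.73 ± 0.14 in DT-resistant (adjusted p = 0.000395). In EB-resistant the log2 fold change was 0.06 ± 0.14 (adjusted p = 0.757, interval -0.24 to 0.35). Both rises were called under every alternative run, with log2 fold changes from 0.58 to 0.81 in VC-resistant and from 0.59 to 0.85 in DT-resistant.

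RRM2B, the p53-inducible ribonucleotide reductase subunit (chromosome 8, 102204502 to 102238961, minus strand), changed little. The levels were 55.7, 43.9 and 45.8 CPM in sensitive, 53.5, 50.9 and 47.1 CPM in EB-resistant, 35.0, 40.6 and 40.3 CPM in VC-resistant and 36.6, 42.9 and 45.6 CPM in DT-resistant replicates 2, 5 and 6. Only the VC-resistant libraries all lay below the sensitive ones. RRM2B fell by 0.33 ± 0.11 on the log2 scale in VC-resistant (adjusted p = 0.0170), with log2 fold changes of 0.06 in EB-resistant (adjusted p = 0.660) and -0.22 in DT-resistant (adjusted p = 0.0914). The VC-resistant call did not survive the removal of sensitive replicate 2 (-0.22, adjusted p = 0.0939), of VC-resistant replicate 2 (-0.25, 0.0783) or of replicate 2 in all groups (-0.14, 0.127). In DT-resistant it was called without DT-resistant replicate 6 (-0.28, adjusted p = 0.0489).

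SESN1, a sestrin induced by p53 and by FOXO factors (chromosome 6, 108986437 to 109094819, minus strand), had 8.33, 8.24 and 8.64 CPM in sensitive and 10.4, 6.76 and 6.53 CPM in EB-resistant replicates 2, 5 and 6. It had 5.80, 6.87 and 7.37 CPM in VC-resistant and 5.89, 6.57 and 6.70 CPM in DT-resistant. As for MDM2, EB-resistant replicate 2 was the highest library, here above all sensitive ones, and every other resistant library lay below the sensitive range. The log2 fold change was -0.09 ± 0.16 in EB-resistant (adjusted p = 0.661), -0.33 ± 0.17 in VC-resistant (0.105) and -0.40 ± 0.17 in DT-resistant (0.0510), and SESN1 was called in none. The DT-resistant difference was called with DESeq2 (adjusted p = 0.0378), with only the 2 groups compared (0.0230) and without EB-resistant replicate 2 (0.0160), EB-resistant replicate 6 (0.0485) or VC-resistant replicate 2 (0.0480). Without EB-resistant replicate 2 the VC-resistant difference was called as well (-0.32, adjusted p = 0.0460). SESN1 fell by 0.34 without replicate 2 of all groups in both EB-resistant (adjusted p = 0.0322) and DT-resistant (0.0339).

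GDF15, a secreted member of the TGF-beta family induced by p53 and by the integrated stress response (chromosome 19, 18374731 to 18389176, plus strand), had the widest spread within a group. In sensitive replicates 2, 5 and 6 it had 14, 3.08 and 1.96 CPM. It had 5.88, 4.44 and 4.96 CPM in EB-resistant, 17.4, 12.0 and 8.69 CPM in VC-resistant and 4.70, 4.19 and 3.34 CPM in DT-resistant libraries. Sensitive replicate 2 exceeded all EB- and DT-resistant libraries, while sensitive replicates 5 and 6 lay below every resistant library of every line. None of the log2 fold changes was called: -0.32 ± 0.63 in EB-resistant (adjusted p = 0.698), 1.00 ± 0.61 in VC-resistant (0.20) and -0.64 ± 0.64 in DT-resistant (0.417). Over the alternatives the sign changed in EB-resistant (-0.73 to 1.01) and DT-resistant (-1.06 to 0.69). The VC-resistant value stayed above 0 (0.58 to 2.32). Without sensitive replicate 2, GDF15 rose by 1.01 in EB-resistant (adjusted p = 0.0108) and by 2.32 in VC-resistant (3.26e-05). That library is singled out for its own GDF15 level, so these adjusted p values are descriptions. Without replicate 2 of all groups it rose in the 3 lines, by 0.89 in EB-resistant (adjusted p = 0.00154), by 2.03 in VC-resistant (1.56e-07) and by 0.58 in DT-resistant (0.0313).

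ZMAT3, an RNA-binding protein induced by p53 that regulates splicing and RNA stability (chromosome 3, 178960121 to 179072215, minus strand), separated the lines in its own way. Its levels were 27.2, 22.9 and 22.8 CPM in sensitive and 40.6, 38.6 and 35.3 CPM in EB-resistant replicates 2, 5 and 6. VC-resistant libraries had 27.1, 26.8 and 28.4 CPM and DT-resistant ones 44.8, 40.9 and 41.5 CPM. The EB- and DT-resistant libraries were all above every sensitive and VC-resistant library, which overlapped. ZMAT3 rose by 0.65 ± 0.09 in EB-resistant (adjusted p = 1.58e-05) and by 0.80 ± 0.09 in DT-resistant (2.27e-06), and had a log2 fold change of 0.18 ± 0.09 in VC-resistant (adjusted p = 0.109). Both rises were called under every alternative. The VC-resistant difference was called without sensitive replicate 2 (0.26, adjusted p = 0.0219) and without replicate 2 of all groups (0.28, 0.00956).

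FAS, the receptor for FAS ligand (chromosome 10, 88990531 to 89017059, plus strand), fell in every line. It had 4.98, 3.85 and 4.44 CPM in sensitive replicates 2, 5 and 6, and 2.44, 0.875 and 1.37 CPM in EB-resistant ones. VC-resistant libraries had 1.29, 1.03 and 1.49 CPM and DT-resistant ones 0.787, 1.06 and 1.08 CPM. All 9 resistant libraries lay below all 3 sensitive ones, the nearest being EB-resistant replicate 2. FAS was 2.83-fold lower in EB-resistant (log2 fold change -1.50 ± 0.28, adjusted p = 0.000341), 3.46-fold lower in VC-resistant (-1.79 ± 0.29, 0.000105) and 4.53-fold lower in DT-resistant (-2.18 ± 0.30, 1.82e-05). The fall was called in the 3 lines under every alternative run. FAS overlaps ACTA2 on the opposite strand, which also fell in the 3 lines and is described at the end.

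TNFRSF10B (DR5), a receptor for TRAIL and, like FAS, a p53 target that recruits caspase 8 (chromosome 8, 23020133 to 23069031, minus strand), did not follow FAS. It had 156, 127 and 113 CPM in sensitive, 123, 99.4 and 98.9 CPM in EB-resistant, 190, 174 and 173 CPM in VC-resistant and 193, 189 and 182 CPM in DT-resistant replicates 2, 5 and 6. The VC- and DT-resistant libraries all exceeded the sensitive ones, which overlapped the EB-resistant ones. TNFRSF10B rose by 0.44 ± 0.11 in VC-resistant (adjusted p = 0.00287) and by 0.51 ± 0.11 in DT-resistant (0.000846), under every alternative run. In EB-resistant it fell by 0.30 ± 0.11 (adjusted p = 0.0277), and this call ended on removing sensitive replicate 2 (-0.17, adjusted p = 0.161), EB-resistant replicate 5 (-0.25, 0.110) or EB-resistant replicate 6 (-0.23, 0.132), and with only these 2 groups in the fit (-0.30, 0.0765). It was called without replicate 2 of all groups (-0.27, adjusted p = 0.00197).

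**Figure D3:**
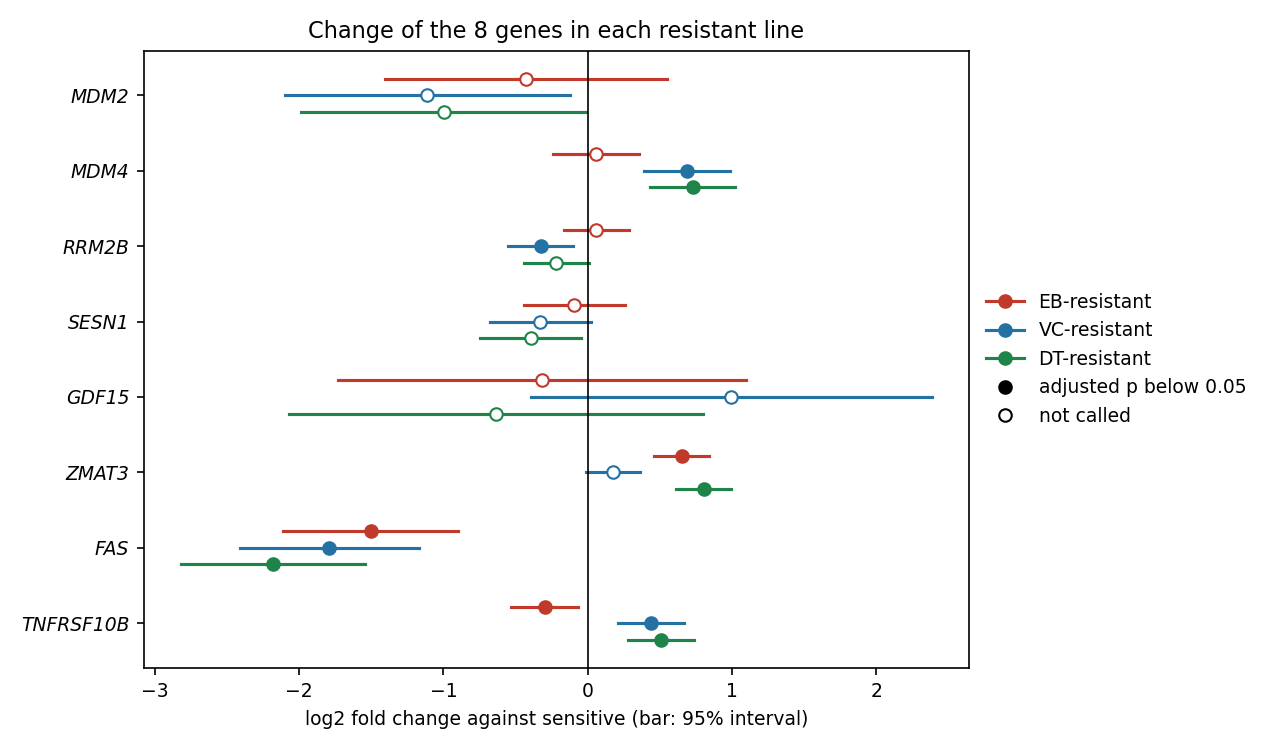
Log2 fold change of each of the 8 genes against sensitive (horizontal axis) in the EB-, VC- and DT-resistant lines, with 95% intervals from the model of all 12 libraries; filled points passed the adjusted p threshold of 0.05. FAS lies between -1.50 and -2.18 in the 3 lines, MDM4 and TNFRSF10B lie above 0 only in the VC- and DT-resistant lines among called values, and GDF15 and MDM2 have the widest intervals.

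The differences between resistant lines were tested directly. EB-resistant differed from VC-resistant in 4 of the 8 genes (50%, against 58.4% of all genes): it had more ZMAT3 (log2 difference 0.48 ± 0.09, adjusted p = 0.000292) and RRM2B (0.39 ± 0.11, 0.00574), and less TNFRSF10B (-0.74 ± 0.11, 3.48e-05) and MDM4 (-0.63 ± 0.14, 0.00115). Against DT-resistant, 3 of 8 were called (37.5%, against 57.2% of all genes), with less TNFRSF10B (-0.81 ± 0.11, 1.60e-05) and MDM4 (-0.67 ± 0.14, 0.000783) and more RRM2B (0.28 ± 0.11, 0.0363). The RRM2B difference between EB- and DT-resistant was lost without EB-resistant replicate 2 (adjusted p = 0.110), EB-resistant replicate 5 (0.0867), DT-resistant replicate 2 (0.158) or DT-resistant replicate 5 (0.0601). In this fit without a replicate block, VC- and DT-resistant differed in ZMAT3 alone (12.5%, against 15.8% of all genes), which was lower in VC-resistant by 0.63 ± 0.09 (adjusted p = 0.000192). All of these, RRM2B between EB- and DT-resistant apart, were called under every alternative run. With the replicate number as a block in a fit of the VC- and DT-resistant lines alone, GDF15 was called as well (1.61, adjusted p = 1.32e-06), where 28.2% of all genes were called. By direction, 29.6% of all genes were higher and 28.8% lower in EB- than in VC-resistant, 28.4% higher and 28.8% lower in EB- than in DT-resistant, and 7.08% higher and 8.71% lower in VC- than in DT-resistant. None of the 8 genes differed at least 2-fold with a call between resistant lines, while 21.6%, 20.9% and 4.63% of all genes did. Without replicate 2 of all groups, 5, 3 and 2 of the 8 genes were called between the lines in the same order, against 60.3%, 57.4% and 21.5% of all genes.

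MDM2, SESN1 and FAS differed between no pair of resistant lines by the test. For MDM2 the interval of the difference ran from -0.30 to 1.67 between EB- and VC-resistant and from -1.10 to 0.87 between VC- and DT-resistant, which leaves room for differences over 1.5-fold. Without replicate 2 of all groups, MDM2 was lower in EB- than in DT-resistant (-0.26, adjusted p = 0.0111), the reverse of the sign with all libraries (0.57, 0.293). FAS was higher in EB- than in DT-resistant only without EB-resistant replicate 5 (0.96, adjusted p = 0.0103), against 0.68 (0.0750) with all libraries.

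For GDF15, every VC-resistant library exceeded every EB- and DT-resistant one. The log2 difference was 1.63 ± 0.63 between VC- and DT-resistant (adjusted p = 0.124) and -1.31 ± 0.62 between EB- and VC-resistant (0.0981), neither called. The shared spread of GDF15 includes sensitive replicate 2, and without that library both were called (1.63, adjusted p = 0.000609, and -1.32, 0.000423), as they were with only the lines compared in the fit (0.00427 and 0.00128) and without replicate 2 of all groups (1.45, 2.82e-05, and -1.14, 5.92e-05). The EB- to VC-resistant difference was also called without sensitive replicate 6 (0.0456). VC- and DT-resistant libraries of the same number deviated together over all genes, and with the replicate number as a block in a fit of these 2 lines alone the difference was 1.61 (adjusted p = 1.32e-06). With the block over all 12 libraries it was 1.59 (0.0532), and the EB- to VC-resistant difference was called (-1.25, adjusted p = 0.0474).

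Per kilobase of the gene length given in the table, the 8 genes covered a wide range of levels in the sensitive line. TNFRSF10B was highest at 26.3 CPM per kb, followed by MDM2 at 13.3, RRM2B at 8.99, GDF15 at 3.05, MDM4 at 2.28, ZMAT3 at 2.15, SESN1 at 1.64 and FAS at 0.793 CPM per kb. In EB-resistant TNFRSF10B stood at 21.4 and FAS at 0.280 CPM per kb. In VC- and DT-resistant the first place of TNFRSF10B (35.7 and 37.5) and the last of FAS (0.228 and 0.175) were kept, while RRM2B (7.17 and 7.73) stood above MDM2 (6.17 and 6.68). Without replicate 2 the sensitive mean was 1.21 CPM per kb for GDF15, below SESN1 at 1.65 rather than above MDM4, and 10.6 for MDM2, still second. The EB-resistant mean of MDM2 was 9.91 with replicate 2, above RRM2B at 9.37, and 5.88 without it, below RRM2B at 9.09.

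Of the 14 regulators listed, MDM2 and MDM4 included and all tested, 5 rose and 4 fell in EB-resistant, 2 rose and 4 fell in VC-resistant, and 3 rose and 1 fell in DT-resistant. The shares called were 64.3%, 42.9% and 28.6%, against 56.1%, 55.0% and 59.1% of all genes. CHEK2, a DNA damage kinase that phosphorylates p53, rose by 0.63, 0.79 and 0.49 in EB-, VC- and DT-resistant (adjusted p = 0.000117, 1.83e-05 and 0.00103). COP1, a ubiquitin ligase for p53, fell by 0.34, 0.38 and 0.44 (adjusted p = 0.00360, 0.00158 and 0.000415). ATR, the kinase that answers replication stress, rose in EB-resistant by 0.57 (adjusted p = 0.000171). PPM1D, a phosphatase that is both a p53 target and its inhibitor, was called in no line, with log2 fold changes from -0.21 to -0.12.

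Beyond the 8 genes, 41 further p53 targets were listed by role. Of these, 39 are in the table and 36 were tested. SFN, TNFRSF10D and SPATA18 had too few counts, and TP53AIP1 and GLS2 have no row in the table analysed here. In EB-resistant 12 rose and 16 fell (77.8% called, against 56.1% of all genes). In VC-resistant 6 rose and 14 fell (55.6% against 55.0%), and in DT-resistant 10 rose and 9 fell (52.8% against 59.1%). The median log2 fold changes were -0.17, -0.18 and 0.09. This wider list, like the 8 genes, held rises and falls in each line. Without replicate 2 of all groups 13 rose and 16 fell of 37 tested in EB-resistant, 7 rose and 12 fell in VC-resistant, and 13 rose and 10 fell in DT-resistant. Of all genes 58.8%, 56.6% and 58.6% were called in that setting. With all libraries, 2 of the 36 tested genes rose in each of the 3 lines, POLH and DRAM1. Another 6 fell in each, CDKN1A, PMAIP1, APAF1, EDA2R, XPC and SESN2. Of all genes 24.6% were called in the same direction in the 3 lines. The VC-resistant call of PMAIP1 and the EB-resistant call of SESN2 were lost under several alternatives, given below.

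**Figure D4:**
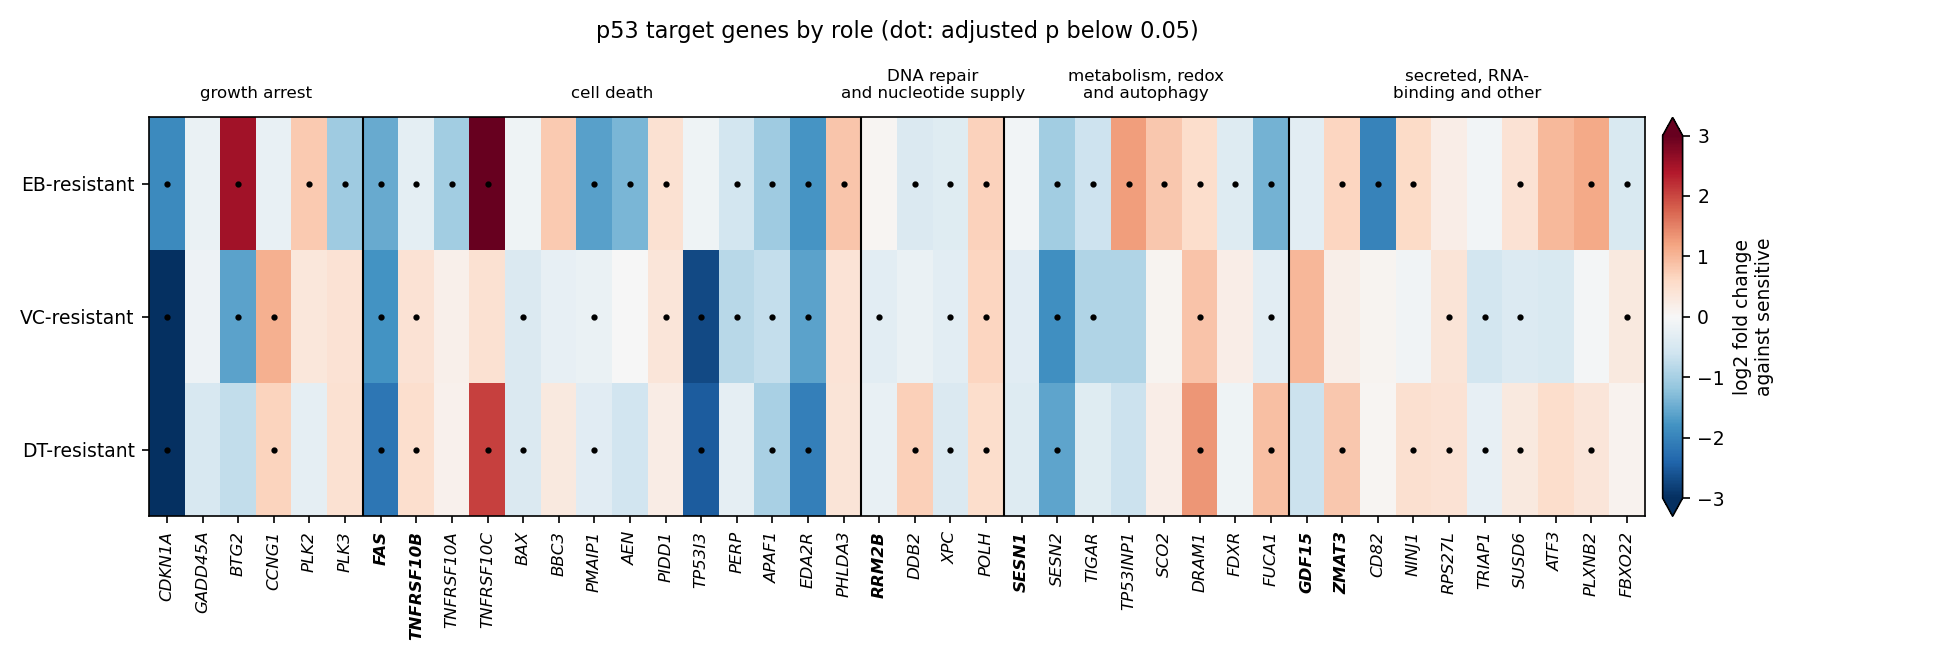
Log2 fold change against sensitive (color, limited to -3 to 3) of the tested p53 targets by role, 1 row per resistant line, with 6 of the 8 genes in bold type and MDM2 and MDM4, listed as regulators, not drawn; a dot marks an adjusted p below 0.05. FAS is blue in the 3 rows like CDKN1A and EDA2R, while TNFRSF10B and FUCA1 change color between rows.

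Among the growth arrest genes, CDKN1A (p21, the CDK inhibitor that carries out p53-dependent arrest) had 86.9, 69.0 and 68.7 CPM in sensitive replicates 2, 5 and 6. It had 28.0, 9.55 and 22.5 CPM in EB-resistant, 3.62, 3.83 and 4.03 CPM in VC-resistant and 2.40, 3.86 and 5.55 CPM in DT-resistant libraries. All resistant libraries lay below the sensitive ones, and the log2 fold changes were -1.90 ± 0.36, -4.29 ± 0.42 and -4.25 ± 0.41 (adjusted p = 0.00138, 1.80e-05 and 1.48e-05). CCNG1, a cyclin that acts in MDM2 regulation, went the other way in VC-resistant (1.07, adjusted p = 7.53e-06) and DT-resistant (0.67, 0.000372), with -0.22 in EB-resistant (0.152). BTG2, an antiproliferative gene, rose by 2.53 in EB-resistant (adjusted p = 0.000255) and fell by 1.62 in VC-resistant (0.0119), where the call was lost without sensitive replicate 2 (0.0509) and without replicate 2 of all groups (0.248). Of the 6 tested genes of this role, 2 rose and 2 fell in EB-resistant (66.7% called, against 56.1% of all genes), 1 rose and 2 fell in VC-resistant (50% against 55.0%), and 1 rose and 1 fell in DT-resistant (33.3% against 59.1%).

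Among the cell death targets, FAS and TNFRSF10B included, 3 rose and 8 fell of 14 in EB-resistant (78.6% called, against 56.1% of all genes), 2 rose and 7 fell in VC-resistant (64.3% against 55.0%), and 2 rose and 6 fell in DT-resistant (57.1% against 59.1%). Falls alone made up 27.6%, 27.4% and 29.3% of all genes. EDA2R, a further member of the TNF receptor family, fell by 1.78, 1.61 and 2.05 in EB-, VC- and DT-resistant (adjusted p = 5.44e-06, 1.84e-05 and 1.74e-06). APAF1, the core of the apoptosome, fell by 1.07, 0.71 and 0.97 (adjusted p = 4.12e-06, 0.000255 and 1.21e-05). PMAIP1 (NOXA), an activator of mitochondrial death, fell by 1.62 in EB-resistant (adjusted p = 1.04e-10), while its falls of 0.19 in VC-resistant (0.0274) and 0.35 in DT-resistant (0.000537) were small. The VC-resistant PMAIP1 call was lost without any 1 of the 6 libraries compared, with adjusted p from 0.0608 to 0.0870. BAX, the pore former, fell by 0.42 in both VC-resistant (adjusted p = 9.55e-05) and DT-resistant (8.10e-05), with -0.13 in EB-resistant (0.119). BBC3 was called in no line, with log2 fold changes of 0.79, -0.24 and 0.29 (adjusted p = 0.0745, 0.585 and 0.494) and 23.4 CPM in sensitive replicate 2 against 10.7 and 12.2 in the others. In EB-resistant BBC3 was called as higher with the replicate block (0.79, adjusted p = 0.00389), without sensitive replicate 2 (1.21, 0.00637), without EB-resistant replicate 5 (1.02, 0.0247) and without replicate 2 of all groups (0.80, 1.21e-05), the last of which also called it in DT-resistant (0.59, 0.000470).

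The listed partners of the 2 death receptors held both rises and falls. Of the 9 tested of 12 listed, 4 rose and 2 fell in EB-resistant (66.7% called, against 56.1% of all genes), 2 rose and 1 fell in VC-resistant (33.3% against 55.0%), and 3 rose and 1 fell in DT-resistant (44.4% against 59.1%). CASP10, an initiator caspase at these receptors, rose by 1.30, 0.93 and 0.76 (adjusted p = 5.84e-06, 0.000177 and 0.000850). CASP8, the main initiator, rose in EB-resistant by 0.66 (adjusted p = 0.000112), with log2 fold changes of -0.23 (0.0922) in VC-resistant and -0.25 (0.0630) in DT-resistant. Both were called with the replicate block (adjusted p = 0.0437 and 0.0272). CASP8 was also called in VC-resistant without VC-resistant replicate 5 (0.0245) or DT-resistant replicate 2 (0.0478), and in DT-resistant without DT-resistant replicate 6 (0.0195). BID, which links receptors to mitochondria, rose by 1.03 in EB-resistant (adjusted p = 6.82e-07) and by 0.26 in VC-resistant (0.0399), the latter lost without any of sensitive replicates 2 or 5, VC-resistant replicates 5 or 6 or DT-resistant replicate 5, with only the groups compared (0.0737) and without replicate 2 of all groups (0.0890). TNFRSF10A (DR4), the other TRAIL receptor, fell by 1.05 in EB-resistant (adjusted p = 1.42e-07) and had log2 fold changes of 0.15 (0.165) and 0.12 (0.252) in VC- and DT-resistant.

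Among the genes that share the role of RRM2B in repair, POLH, a polymerase that copies past ultraviolet damage, rose by 0.69, 0.65 and 0.53 in EB-, VC- and DT-resistant (adjusted p = 4.22e-05, 9.45e-05 and 0.000462). XPC, which recognizes distorted DNA, fell by 0.37, 0.32 and 0.43 (adjusted p = 0.000648, 0.00199 and 0.000169). DDB2, its partner in the recognition of ultraviolet damage, fell by 0.43 in EB-resistant (adjusted p = 0.000646) and rose by 0.70 in DT-resistant (6.50e-06). With RRM2B, 1 of the 4 genes of this role rose and 2 fell in EB-resistant, as in VC-resistant, and 2 rose and 1 fell in DT-resistant. That is 75% called in each line, against 56.1%, 55.0% and 59.1% of all genes.

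SESN2, the sestrin most like SESN1 in role and a target of both p53 and ATF4, resembled MDM2 in its libraries. It had 166, 125 and 95.1 CPM in sensitive and 101, 41.3 and 46.0 CPM in EB-resistant replicates 2, 5 and 6. It had 26.3, 39.9 and 41.2 CPM in VC-resistant and 29.5, 46.2 and 52.8 CPM in DT-resistant. SESN2 fell by 1.84 ± 0.39 in VC-resistant (adjusted p = 0.00333), by 1.59 ± 0.39 in DT-resistant (0.00650) and by 1.04 ± 0.38 in EB-resistant (0.0446). The EB-resistant call was lost without sensitive replicate 2 or 5, EB-resistant replicate 5 or 6, VC-resistant replicate 2, 5 or 6, or DT-resistant replicate 5 or 6, with no filter (adjusted p = 0.0687), with only the 2 groups compared (0.112) and with the replicate block (0.0850). DRAM1, a p53 target in autophagy, rose by 0.52, 0.85 and 1.33 in EB-, VC- and DT-resistant (adjusted p = 0.000102, 1.43e-06 and 1.29e-08). FUCA1, a lysosomal fucosidase, fell by 1.42 in EB-resistant (adjusted p = 1.06e-07) and by 0.33 in VC-resistant (0.0259, lost on leaving out either of sensitive replicates 2 and 6 or of VC-resistant replicates 5 and 6), and rose by 0.89 in DT-resistant (1.03e-05). Of the 8 tested genes of metabolism, redox control and autophagy, SESN1 included, 3 rose and 4 fell in EB-resistant (87.5% called, against 56.1% of all genes), 1 rose and 3 fell in VC-resistant (50% against 55.0%), and 2 rose and 1 fell in DT-resistant (37.5% against 59.1%).

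In the role group of GDF15 and ZMAT3, 4 of 10 rose and 2 fell in EB-resistant (60% called, against 56.1% of all genes), 2 rose and 2 fell in VC-resistant (40% against 55.0%), and 5 rose and 1 fell in DT-resistant (60% against 59.1%). CD82, a tetraspanin that restrains metastasis, fell by 2.00 in EB-resistant (adjusted p = 7.49e-10) and had log2 fold changes of 0.09 (0.485) and 0.07 (0.586) in VC- and DT-resistant. PLXNB2, a semaphorin receptor, rose by 1.14 in EB-resistant (adjusted p = 5.22e-07). Of the integrated stress response, the other known inducer of GDF15, 4 of 9 tested genes rose and 2 fell in EB-resistant (66.7% called, against 56.1% of all genes), 3 rose and 1 fell in VC-resistant (44.4% against 55.0%), and 4 rose and 1 fell in DT-resistant (55.6% against 59.1%). ATF4, its transcription factor, rose by 0.28 in EB-resistant (adjusted p = 0.0126) and 0.25 in VC-resistant (0.0253), with 0.20 in DT-resistant (0.0552). The EB-resistant ATF4 call was lost without sensitive replicate 6 (0.0558) and the VC-resistant one on leaving out either of sensitive replicates 5 and 6 or of VC-resistant replicates 5 and 6, or with only these groups in the fit (0.0531), while the DT-resistant difference was called with other size factors (0.0494), no filter (0.0357) and the replicate block (0.0443), and without sensitive replicate 2 (0.00280), VC-resistant replicate 2 (0.0455) or replicate 2 of all groups (0.000376). DDIT3 (CHOP), a target of ATF4, fell by 0.79 in EB-resistant (adjusted p = 0.0153), a call lost without EB-resistant replicate 5 (0.0549), and rose by 1.02 in DT-resistant (0.00330). In VC-resistant, where GDF15 was highest, DDIT3 had a log2 fold change of 0.14 (adjusted p = 0.628), and 0.35 (0.0158) without replicate 2 of all groups.

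The genes whose log2 CPM followed MDM2 most closely over the 12 libraries, among the 9528 genes at 5 CPM or more in each library, included both sestrins. They were SESN2 (Pearson r = 0.906), NCOR1 (0.890), SESN1 (0.886), KLF4 (0.867) and NBPF14 (0.841), whose near-identical copies make its counts uncertain. These are descriptions over 12 libraries that share their groups, scaling and the 2 high replicate 2 libraries. For the mean of the 8 standardized genes the closest were ZRANB3 (0.835), CEBPG (0.816), CCDC174 (0.761), GADD45A (0.734) and RCCD1 (0.731).

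Many genes next to MDM2 and SESN1 on the chromosome differed between the groups, while MDM2 and SESN1 themselves were not called with all libraries. Within 1 Mb of the MDM2 start, 13 other genes were tested. Of these, 11 fell and 0 rose in EB-resistant, 8 fell and 0 rose in VC-resistant, and 8 fell and 2 rose in DT-resistant, against 27.6%, 27.4% and 29.3% of all genes that fell. SLC35E3, the neighbour 62052 bases from the MDM2 start, had log2 fold changes of -0.86, -1.11 and -1.31, all called, and NUP107, a nuclear pore gene, had -0.55, -0.16 and -0.29, all called. Around SESN1, of 15 neighbours tested, 13 rose and 0 fell in both VC- and DT-resistant, where 27.6% and 29.8% of all genes rose. In EB-resistant 6 rose and 1 fell, where 28.5% of all genes rose. FOXO3, 534984 bases from the SESN1 start and the gene of a factor that induces SESN1, had 0.77, 1.11 and 1.28, all called. Neighbours share their region and are not independent of each other, and what part the region has in the MDM2 and SESN1 values was not tested.

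MDM2, FAS and TNFRSF10B overlap other genes on the opposite strand. MDM2 overlaps the carboxypeptidase M gene (15.1 CPM on average), FAS the smooth muscle actin gene ACTA2 (0.471 CPM) and TNFRSF10B the gene RHOBTB2 (8.32 CPM). The libraries were strand-specific, but the strand setting of the counting is not given in the sources used here, so some reads of these pairs may be counted for the partner. ACTA2 fell with FAS, with log2 fold changes of -1.70, -2.39 and -2.54 in EB-, VC- and DT-resistant, all called. Its level was 1.31, 0.992 and 1.09 CPM in the sensitive libraries and between 0.132 and 0.417 CPM in the 9 resistant ones. How far the FAS and ACTA2 counts share reads was not tested. RHOBTB2 had -0.07, -0.81 and -1.06, called in VC- and DT-resistant, where TNFRSF10B rose. The carboxypeptidase M gene had -2.20, -0.63 and 0.94, all called.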

How the data were processed

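Libraries from polyadenylated RNA were made with a strand-specific kit and read as paired ends, per the labels' protocols. Per the submitters' processing notes, the tools were bcl2fastq 2.20.0, STAR 2.7.10b, featureCounts 2.0.1 and DESeq2 1.38.3, with hg38. Drug doses, annotation release and strand setting: not given in the sources used here. The authors deposited integer read counts per gene and a table of normalised counts, a signal that equals the count over a median-of-ratios size factor within 0.05; tests used the counts. All 12 columns were matched to samples, no 2 libraries were identical, and each gene has at least 11 counts in total.

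Low counts were removed with filterByExpr (4 groups). After TMM scaling, 1 robust quasi-likelihood fit of group means without a replicate block (8 residual degrees of freedom) was made in edgeR 4.0.16 (R 4.3.3, limma 3.58.1). The F-test of each of the 6 pairs of groups was adjusted by Benjamini-Hochberg over 17114 genes, threshold 0.05. Standard errors were back-calculated from F, intervals are 95%, and log2 CPM used a prior count of 2. The script was tested on simulated counts. Deviations of same-numbered VC- and DT-resistant libraries correlated at 0.337, 0.151 and 0.195, each over 0.1, which pairs these 2 lines by the data, and no other pair of groups met that limit.

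Alternatives were RLE size factors, no filter, the replicate block, only the 2 groups compared, DESeq2 1.42.0, a 2-fold minimum, leaving out each library in turn and, added after the data were seen, leaving out replicate 2 of every group and the block on the VC- and DT-resistant lines alone. The 8 genes and all lists were chosen with earlier results of these data known. Named are the 8 genes, from each list up to 3 genes a direction and comparison with sensitive by adjusted p among called genes whose higher group held 5 CPM or more in all its libraries, the fixed names CDKN1A, PPM1D, BAX, BBC3, SESN2, CCNG1, TNFRSF10A, DDIT3 and ATF4, and the genes most like MDM2 or the mean of the 8. Some genes this rule names are not reported here. AEN, GADD45A and TP53INP1 in replicate 2, the genes called alike in the 3 lines and the neighbours were chosen after their values were seen. Promoter windows are RefSeq's; exons are from GENCODE 29. Plots used matplotlib 3.10.9 (Python 3.11.15).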

Additional observations from a re-analysis of the deposited data

Results flagged for a closer look

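The change against sensitive differed between resistant lines, by a test of the difference itself, in 8 of the comparisons made of the 8 genes; only these genes were screened. Between EB- and VC-resistant the log2 differences were -0.63 for MDM4, 0.39 for RRM2B, 0.48 for ZMAT3 and -0.74 for TNFRSF10B. Between EB- and DT-resistant they were -0.67 for MDM4, 0.28 for RRM2B and -0.81 for TNFRSF10B, and between VC- and DT-resistant -0.63 for ZMAT3. The shares of all genes called in these comparisons were 58.4%, 57.2% and 15.8%. TNFRSF10B changed in opposite directions against the parent, lower in EB-resistant, a call lost without sensitive replicate 2 or EB-resistant replicate 5 or 6 and with only these 2 groups in the fit, and higher in VC- and DT-resistant. MDM4 was higher in VC- and DT-resistant alone by the test. The groups have 3 libraries each, so single outlying libraries could not be screened by a gap test.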

How the results depend on the processing

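RLE size factors, no filter, the replicate block over 12 libraries and DESeq2 reversed no call of the 8 genes and ended none. With the block over 12 libraries, GDF15 between EB- and VC-resistant was the only call of the 8 genes that changed. With a 2-fold minimum, 1 of the 8 genes was called against sensitive in each line and 0 between any 2 resistant lines, and of the wider list 14, 6 and 6 in EB-, VC- and DT-resistant, then 15 (EB- against VC-resistant), 12 (EB- against DT-resistant) and 2 (VC- against DT-resistant). Without replicate 2 of all groups, 6 of the 8 were called in EB-resistant, 7 in DT-resistant and 2 between VC- and DT-resistant; GDF15 reversed to 0.89 in EB-resistant and 0.58 in DT-resistant, and MDM2 between EB- and DT-resistant to -0.26. Over single left-out libraries, GDF15 in EB-resistant ranged from -0.73 (without sensitive replicate 6) to 1.01 (without sensitive replicate 2, reversed). Between VC- and DT-resistant, with only these groups in the fit 2 of the 8 were called, and with the replicate block on these lines alone 2 of the 8 and 19 of the wider list, against 10 and with 28.2% of all genes called. Leaving out each library in turn gave 2 to 4 calls among the 8 genes in EB-resistant, 3 to 6 in VC-resistant, 4 to 6 in DT-resistant, 4 to 5, 2 to 3 and 1 to 2 between lines (EB-VC, EB-DT, VC-DT), and for the wider list 6 to 10 between VC- and DT-resistant, the 6 being without VC-resistant replicate 6 or DT-resistant replicate 5. The cause of these shifts was not tested. FAS, at about 1 CPM in resistant libraries, has the fewest counts of the 8.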
